A study of Mus musculus with 4 samples.

Results

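The miR-148/miR-152 family consists of 3 microRNA genes, Mir148a, Mir148b and Mir152, and its members here are the rows of the deposited small RNA table whose gene ID belongs to one of them. All 3 had a row, of 643 microRNA (miRNA) genes and 2976 rows in all. The family was picked by name with its levels in this table already known, in particular the high level of Mir148a, so the levels, their order and the ratios between members are given as description, with no test. The table holds 4 small RNA libraries of a single group: wild-type CD1 mouse embryos at stage E10.5 of genotype Tbx18-Cre;CAG-tdTomato. Cre under the control of Tbx18 switches on tdTomato, a red fluorescent protein, which then also marks the descendants of a cell that once made Cre, and the cells sorted were stroma around the wolffian duct. No other genotype, stage or treatment was measured, so the data hold levels in these cells and no contrast between conditions. No label states if the 4 libraries are from different embryos, litters or pools. Each SD below is therefore a spread between libraries that may be technical.

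A miRNA gene is transcribed as a precursor that folds into a hairpin, and both arms of the hairpin can give a mature miRNA, named 5p and 3p. The mature miRNA guides the Argonaute proteins to messenger RNAs, mostly through its seed, bases 2 to 8 from its 5′ end, and lowers their stability and translation. Members of a family share the seed and are therefore able to pair with overlapping sets of messages. The miR-148/miR-152 family is best known for acting on Dnmt1, the maintenance DNA methyltransferase, and miR-148a is abundant in liver and other organs of the gut.

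The mature 3p sequences, from RefSeq on GRCm38.p6, are shown because they define the family and because the few bases that tell the members apart decide how reads can be assigned to them. The seed is in capitals.
miR-148a-3p: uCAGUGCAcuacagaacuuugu
miR-148b-3p: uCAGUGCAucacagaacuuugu
miR-152-3p: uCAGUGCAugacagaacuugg
The first 8 bases were identical in the 3 sequences, and 18 of the 21 positions that could be compared were the same in all. Counted from the 5′ end, miR-148a-3p and miR-148b-3p differed by C9U and U10C, with the base of miR-148a-3p given first. Between miR-148a-3p and miR-152-3p the substitutions were C9U, U10G and U20G. Between miR-148b-3p and miR-152-3p they were C10G and U20G. A full-length read of any member therefore carries at least 2 differences from the others, and positions 9, 10 and 20 are where the differences lie. Of 1738 mature miRNAs in the RefSeq table, 3 had the seed CAGUGCA, and these were the 3 family members. The site that pairs with it in a message reads UGCACUG.

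The search of the RefSeq table found the same 7 letters 1 base earlier, at bases 1 to 7, in 7 other mature miRNAs, among them members of the miR-130/miR-301 family. The sequence of miR-130b-3p is shown with these letters in capitals, as the most abundant example in these libraries.
miR-130b-3p: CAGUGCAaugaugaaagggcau
Its own seed is AGUGCAA, so it belongs to another seed family despite the shared letters. Mir130b was at 83.5, 146, 88.7 and 34.8 TPM (reads over gene length, scaled so that all genes of a library add up to the same constant) in libraries 1 to 4. Those values lay below Mir148a and above Mir148b in each library. Mir130a had a mean of 14.2 TPM, Mir301 of 12.7 TPM, and Mir721 was listed at 0. Mir130c, Mir6341 and Mir6389, which also hold the letters, were not found among the 643 miRNA genes with a row.

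The 5p arms were less alike. They are shown with their seeds in capitals because reads of either arm fall on the same row of this table.
miR-148a-5p: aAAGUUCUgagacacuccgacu
miR-148b-5p: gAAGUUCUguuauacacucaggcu
miR-152-5p: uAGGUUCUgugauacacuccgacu
The 5p arms of Mir148a and Mir148b shared the seed AAGUUCU, which no other mature miRNA of the RefSeq table had, whereas miR-152-5p has AGGUUCU. The rows are precursor genes, so the values do not say which arm was present.

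The hairpins are shown, with the 3p arm in capitals, because the deposited unit divides reads by their length.
Mir148a hairpin: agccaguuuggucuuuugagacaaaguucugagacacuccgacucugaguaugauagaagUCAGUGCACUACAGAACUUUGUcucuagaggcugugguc
Mir148b hairpin: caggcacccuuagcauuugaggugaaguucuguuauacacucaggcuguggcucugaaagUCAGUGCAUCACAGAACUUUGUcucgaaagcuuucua
Mir152 hairpin: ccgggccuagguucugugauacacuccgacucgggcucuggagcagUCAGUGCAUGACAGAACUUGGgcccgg
The hairpins of Mir148a and Mir148b are 99 and 97 nt long and that of Mir152 is 73 nt, although the mature 3p products differ little, at 22, 22 and 21 nt. For the same number of reads, Mir152 thus receives a TPM 1.33 times that of Mir148b and 1.36 times that of Mir148a.

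The 3 genes lie on different chromosomes of GRCm38, each on the same chromosome as a Hox cluster. Mir148a (gene ID 387166) lies at chr6:51269812-51269910 on the minus strand, outside annotated genes of GENCODE vM21, and the nearest annotated gene is the long non-coding Gm32479, 13621 bp away. Mir148b (gene ID 724064) lies at chr15:103285125-103285221 on the plus strand, in an intron of all 4 transcripts of Copz1 that span it. Mir152 (gene ID 387170) lies at chr11:96850393-96850465 on the plus strand, in an intron of all 3 transcripts of Copz2 that span it and 523 bp from the start of that gene. Copz1 and Copz2 are paralogs that encode the zeta subunit of the coatomer, the protein coat of vesicles that carry cargo within the Golgi and back to the endoplasmic reticulum. The messages of these hosts were not analysed here. No member overlapped another of the 2541 rows, of 2976, that were matched to RefSeq genes. The unmatched rows had no coordinates to compare.

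In each case the nearest miRNA row on the chromosome was a miRNA of the Hox cluster. Mir196b of the HoxA cluster was 960 kb from Mir148a, Mir615 of the HoxC cluster was 270 kb from Mir148b with Mir196a-2 at 312 kb, and Mir10a of the HoxB cluster was 533 kb from Mir152 with Mir196a-1 at 585 kb. Chromosome 2, with the HoxD cluster and Mir10b, has no member of the family. Relative to these neighbours the members held different places. Mir148a was above Mir196b (267 ± 114 TPM, SD, n = 4) in 4 of 4 libraries. Mir148b was below Mir615 (652 ± 256 TPM) and Mir196a-2 (512 ± 242 TPM) in 4 of 4. Mir152 was below Mir10a (3929 ± 2589 TPM) and above Mir196a-1 (37.3 ± 16.5 TPM) in 4 of 4.

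Reads per miRNA gene could be recovered from the TPM values, and numbered 146255 to 1087240 per library over all miRNA genes, with library 4 the shallowest. All 2976 rows together hold between 2.33% and 7.22% of the TPM of a whole library. Of that sum, the miRNA genes made up between 70.3%, in library 4, and 90.7%, in library 2. A TPM level therefore also moves with genes that are not used here. Of the markers for the labelled mesenchyme, 4 of 6 reached at least 1 TPM in every library, 66.7% against 33.1% of all miRNA genes. The sum of this list ranged from 331 to 2373 TPM. Mir199a-2 and Mir214 of that list were listed at 0, and each overlaps another row. The epithelial list summed to between 43.5 and 157 TPM, with 5 of 6 (83.3%) at 1 TPM or more in every library. The erythroid list (0 of 3 at that level, Mir486 at 0) and the white blood cell list (0 of 4, Mir223 at 0) stayed at or below 11.9 TPM in sum. Mir486 and Mir223 each overlap another row too, so a 0 there may be a matter of counting and these sums may be incomplete. The endothelial Mir126a was at 251 to 528 TPM, and the neural list at 240 to 3173 TPM, highest in library 3, where Mir9-3 alone gave 2861 TPM. In that library Mir9-1 and Mir9-2 were at 16.9 and 2.03 TPM, a split that may depend on how multiply mapping reads were treated. The neural list had 3 of 8 members (37.5%) at 1 TPM or more in every library. Mir124a-1 was at 0, and its row also overlaps another. In bulk RNA, fewer cells of a type and less RNA per cell cannot be told apart.

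Mir148a supplied nearly the whole family. It was at 1143, 1931, 1524 and 528 TPM in libraries 1 to 4, a mean of 1281 ± 597 TPM (SD, n = 4), from 28927, 39300, 28928 and 5634 reads. Library 2 was highest and library 4 lowest, with a ratio of 3.66 between them. By mean TPM Mir148a was the 7th of the 643 miRNA genes, and within single libraries it was 9th, 7th, 8th and 4th. Next above it by mean was Mir541 of the Dlk1-Dio3 imprinted locus, at 1549 ± 674 TPM, and next below was Mir125a, a relative of the lin-4 miRNA of worms, at 1148 ± 837 TPM (SD, n = 4). Mir541 was above Mir148a in 3 of 4 libraries and Mir125a in 1 of 4, so the means of these neighbours are not separated beyond their spread.

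Mir152 was at 96.2, 103, 74.8 and 13.6 TPM in libraries 1 to 4, a mean of 71.8 ± 40.6 TPM (SD, n = 4). Libraries 1 and 2 were highest, and library 4 was far below the other 3, at 107 reads against 1047 to 1795. It was 82nd by mean TPM, between Mir676 (72.4 ± 30.0 TPM), which exceeded it in 2 of 4 libraries, and Mirlet7i (68.4 ± 98.7 TPM), which exceeded it in 1 of 4. Mirlet7i owed its place to library 1, at 216 TPM.

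Mir148b was the lowest member by mean, at 35.4, 68.4, 74.2 and 10.9 TPM in libraries 1 to 4 and a mean of 47.2 ± 29.6 TPM (SD, n = 4). Libraries 2 and 3 were highest, unlike Mir152, and library 4 again lowest, with 114 reads. It was 103rd by mean TPM, between Mir501 (50.1 ± 37.4 TPM), above it in 1 of 4 libraries, and Mir540 (46.0 ± 23.4 TPM), above it in 2 of 4. The neighbours of Mir152 and of Mir148b in the order thus do not differ from them beyond the spread either.

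All 3 members reached at least 1 TPM in every library, as did 33.1% of the 643 miRNA genes, and 1 of the 3, Mir148a, had a mean of at least 100 TPM, as did 10.6%. Since the family was chosen with its levels known, nothing is read from these counts.

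**Figure D1:**
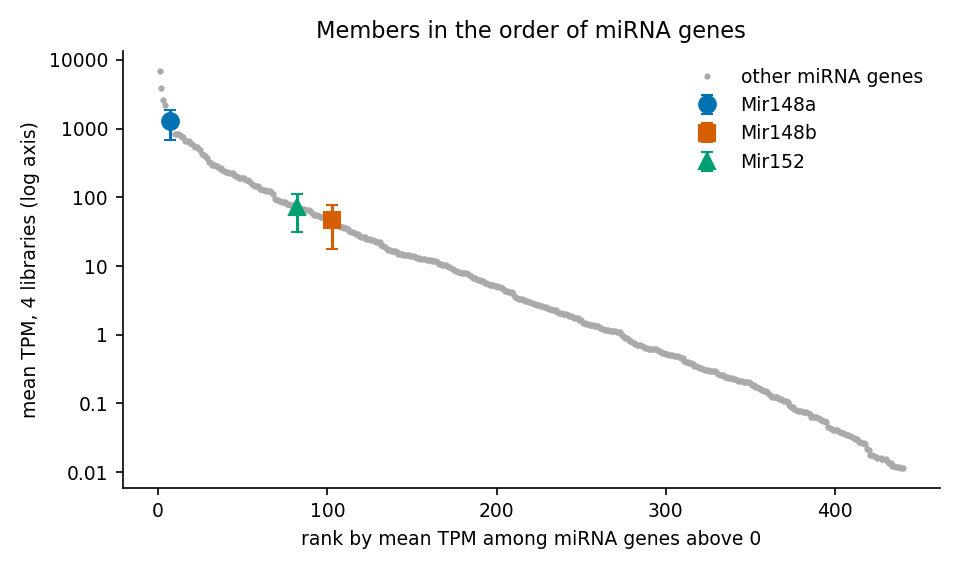
Mean TPM over 4 libraries (log axis) against the rank by that mean, for miRNA genes with a mean above 0. Bars on the members are the SD (n = 4). Mir148a stands at rank 7, Mir152 at 82 and Mir148b at 103.

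Within the family, Mir148a made up 89.7%, 91.9%, 91.1% and 95.6% of the summed TPM in libraries 1 to 4, a mean of 92.0% ± 2.51 (SD, n = 4). Mir152 made up 4.84% ± 2.09 and Mir148b 3.11% ± 1.03. The family sum was 1274, 2102, 1673 and 552 TPM, so that its highs and lows are those of Mir148a. On the log2(TPM + 1) scale Mir148a lay above Mir148b by 4.97, 4.80, 4.34 and 5.47 in libraries 1 to 4, a mean of 4.90 ± 0.47 (SD, n = 4). On the same scale it lay above Mir152 by 3.56, 4.22, 4.33 and 5.18, a mean of 4.32 ± 0.67. Without the added 1, the TPM of Mir148a was 20.6 to 48.4 times that of Mir148b and 11.9 to 38.8 times that of Mir152. Both ratios were largest in library 4, where both minor members were scarce.

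The order of the minor members depended on the unit. In TPM, Mir148b was below Mir152 in 4 of 4 libraries, at 0.37, 0.67, 0.99 and 0.80 of its level in libraries 1 to 4. The mean log2 ratio was -0.58 ± 0.61 (SD, n = 4), so the SD exceeded the mean difference, and in library 3 the genes were at 74.2 and 74.8 TPM. In recovered reads, not divided by hairpin length, Mir148b had 879 against 1795 in library 1 and 1363 against 1542 in library 2, but 1379 against 1047 in library 3 and 114 against 107 in library 4. The mean log2 ratio on reads scaled to the miRNA reads of each library was then -0.18 ± 0.61, with 2 libraries on each side.

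As a share of the family's reads, with 95% exact (Clopper-Pearson) intervals that cover counting error only, Mir148b took 2.78% (2.60 to 2.97) in library 1, where Mir152 took 5.68% (5.43 to 5.94). In library 2 the shares were 3.23% (3.06 to 3.40) for Mir148b and 3.65% (3.48 to 3.84) for Mir152. In library 3 Mir148b took 4.40% (4.17 to 4.63) and Mir152 took 3.34% (3.14 to 3.54). In library 4 the shares were 1.95% (1.61 to 2.33) and 1.83% (1.5 to 2.20), and a difference was not detectable at that depth. The intervals of the minor members did not overlap in libraries 1, 2 and 3, with Mir152 higher in libraries 1 and 2 and Mir148b higher in library 3. No single order of these genes by reads therefore holds for the 4 libraries.

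**Figure D2:**
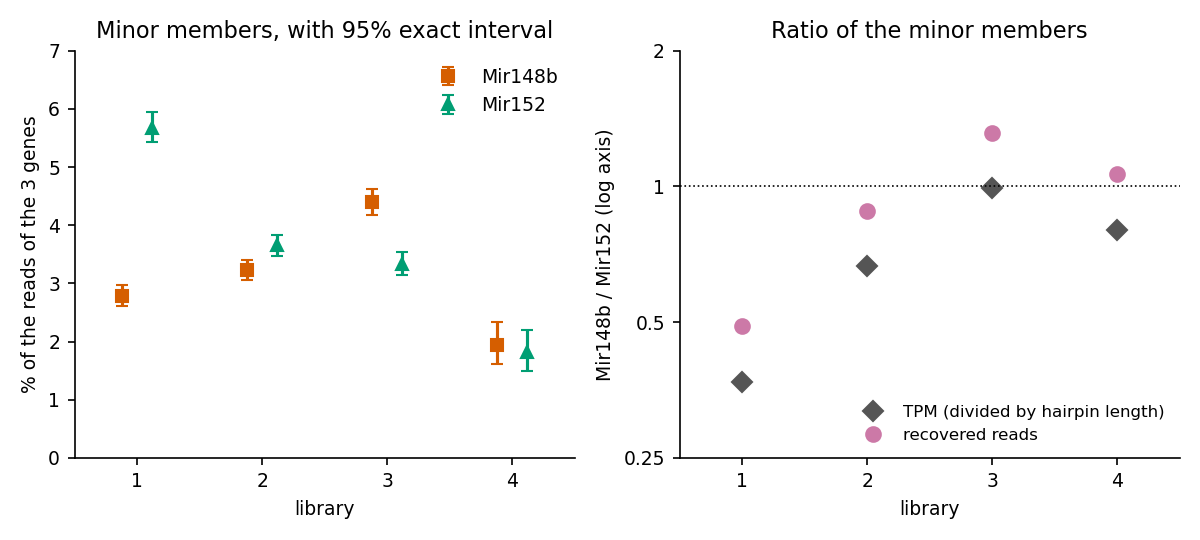
Left, the percentage of the 3 genes' recovered reads that fell on Mir148b and Mir152 in each library, with 95% exact binomial intervals. Right, the ratio of Mir148b to Mir152 (log axis) in TPM and in recovered reads, with a dotted line at 1. Division by hairpin length puts Mir148b below Mir152 in every library, and the reads put it above in libraries 3 and 4.

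Much of the spread of Mir148a in TPM was shared with the other miRNAs of a library. As a percentage of the library's summed miRNA TPM, Mir148a took 2.69%, 2.95%, 2.47% and 3.22% in libraries 1 to 4, a mean of 2.83% ± 0.324 (SD, n = 4). The highest of these was 1.30 times the lowest, and it belonged to library 4, the library with the lowest TPM. The coefficient of variation (CV, the SD as a percentage of the mean) was 46.6% for the TPM and 11.4% for the share. This calculation was added after the values were seen. Among the 68 miRNA genes with a mean of at least 100 TPM, the CV of the share had a median of 39.5%, and Mir148a had the second lowest, after Mir196b at 11.2%. With libraries left out in turn its place among the 68 was between 3rd and 5th lowest, at a CV of 8.88% to 13.8%.

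The minor members did not hold so steady a share. Mir152 took 0.226%, 0.157%, 0.121% and 0.0829% of the miRNA TPM in libraries 1 to 4, with a CV of 41.5%. Mir148b took 0.0834%, 0.104%, 0.120% and 0.0665%, with a CV of 25.1%. When Mir10a and Mir10b, the most abundant miRNA rows, were left out of the miRNA total, the CV was 33.3% for Mir152, 33.5% for Mir148b and 13.1% for Mir148a, so that the minor members no longer differed in that order. Among the 213 miRNA genes with at least 1 TPM in every library, whose median CV was 38.3%, Mir148a had the 6th lowest CV, Mir148b the 52nd and Mir152 the 122nd. Counts limit these 2 genes more than Mir148a, but in library 1 the 1795 reads of Mir152 gave 0.203% of miRNA reads (0.194 to 0.213), and in library 3 the 1047 reads gave 0.107% (0.101 to 0.114), so their gap exceeds counting error.

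**Figure D3:**
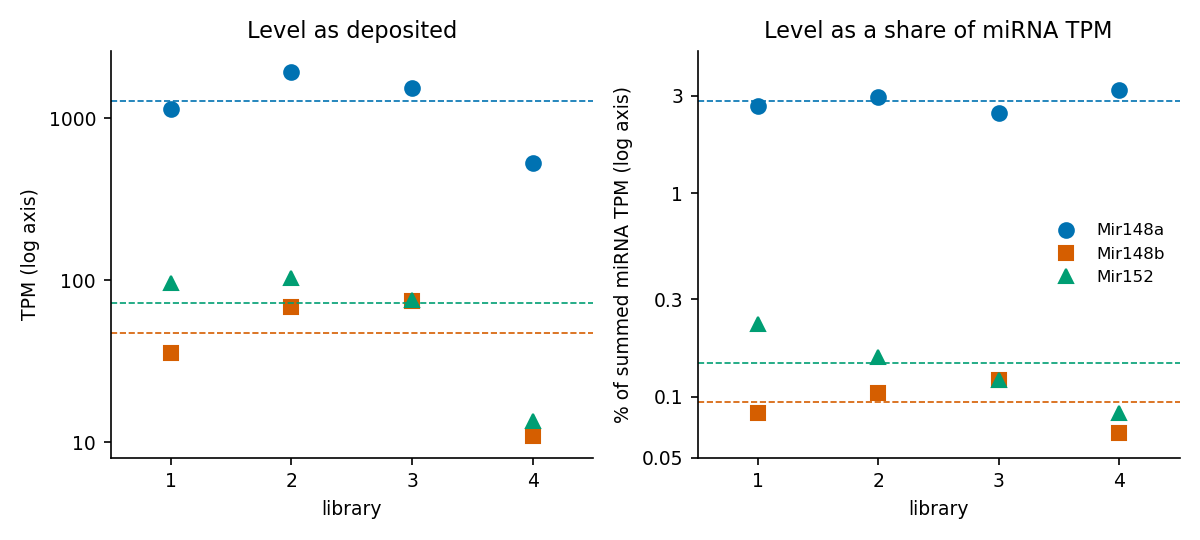
Level of each member in the 4 libraries, in TPM (left, log axis) and as a percentage of the library's summed miRNA TPM (right, log axis). Dashed lines are means. Mir148a falls to 528 TPM in library 4 but keeps 2.47% to 3.22% of the miRNA TPM, while the share of Mir152 spans 0.0829% to 0.226%.

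**Figure D4:**
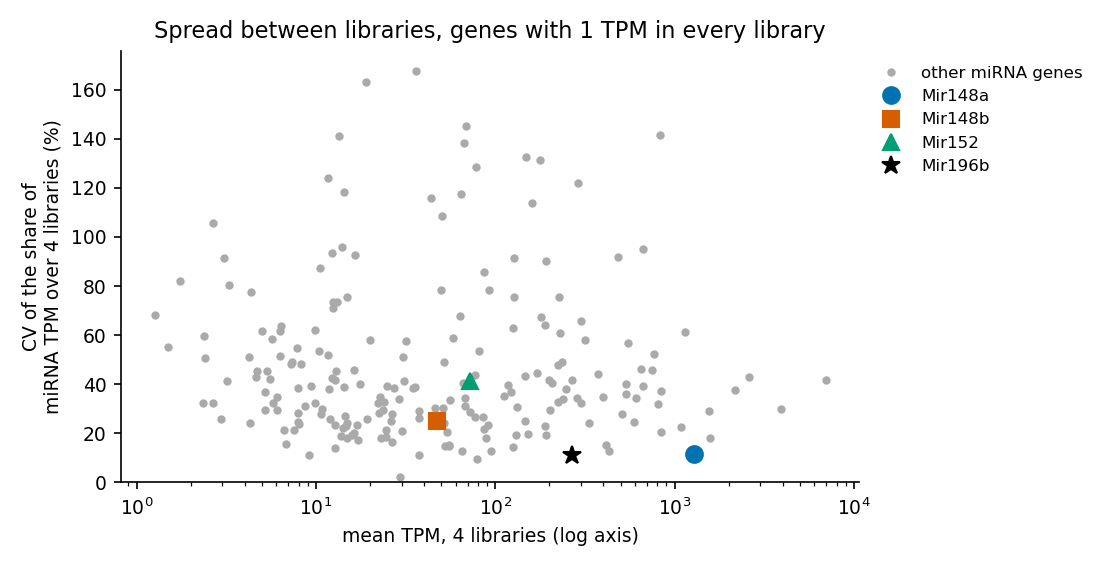
CV of the share of miRNA TPM over 4 libraries against mean TPM (log axis), for the 213 miRNA genes with at least 1 TPM in every library. Mir148a lies near the bottom at 11.4% beside Mir196b at 11.2%, Mir148b at 25.1% and Mir152 at 41.5%.

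Markers of the labelled mesenchyme and of other cell types differed between the same libraries. As percentages of the miRNA TPM, the mesenchyme list took 4.46%, 3.62%, 2.34% and 2.02% in libraries 1 to 4, the order in which the share of Mir152 stood. Within that list Mir199a-1 took 2.57%, 1.70%, 1.19% and 0.685%, in the same order, while Mir143 took 1.26%, 1.65%, 0.907% and 1.20%, in another. The endothelial Mir126a took 0.659%, 0.666%, 0.856% and 1.53%, the reverse order. The epithelial list took 0.174%, 0.0707%, 0.255% and 0.265%, and the neural list 1.41%, 0.734%, 5.14% and 1.47%. The striated muscle list took 0.802%, 0.197%, 0.193% and 1.36%. It was mostly Mir206, at a mean of 191 TPM in a summed mean of 203 TPM. Of its members, 2 of 5 were at 1 TPM or more in every library, against 33.1% of all miRNA genes. Mir1a-2 was at 0, and its row overlaps another. The liver miRNA Mir122 took 0.216%, 0.0359%, 0.0838% and 0.875%, highest in library 4 like Mir148a but lowest in library 2, where Mir148a had its second highest share. The list of pancreatic miRNAs, Mir375, Mir216a and Mir217, took 0.0163% to 0.0951%, with Mir375 at 12.3 ± 4.69 TPM (SD, n = 4). Of its members, 1 of 3 was at 1 TPM or more in every library, 33.3% against 33.1% of all miRNA genes. The part of the cell types, labelled or other, in the levels of the family was not tested.

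The profile of each member over the 4 libraries was set against those of the other miRNA genes with a mean of at least 100 TPM. The measure was the root mean square difference of log2(TPM + 1) values, each centred on its own mean, so that 0 is an identical shape and the overall scale of a library cancels, apart from the pseudocount. With 4 libraries this is a description. For Mir148a the nearest of 67 genes was Mir196b at 0.11, against a median of 0.51 over the 67. Mir196b, which targets Hox messages, is also the nearest miRNA row on its chromosome, and a link was not tested. Mir148a and Mir196b had the lowest CVs of the share of miRNA TPM among the 68 genes, at 11.4% and 11.2%. Both thus followed the miRNA total closely, so the small distance between them is not a separate result. Mir744 followed at 0.21, Mir26a-2, of the broadly expressed miR-26 family, at 0.23, Mir30e at 0.24, and Mir381 of the Dlk1-Dio3 locus at 0.24. Without library 1 or library 4 Mir196b was 6th, and without library 3 it was 3rd.

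Mir148b had Mir25 as its nearest of 68 genes, at 0.04, against a median of 0.60. Mir25 lies with Mir93 and Mir106b in a cluster known from the control of the cell cycle. Mir30d at 0.11, Mir151 at 0.13, Mir30c-1 at 0.14 and Mir26b at 0.17 came next. Mir25 stayed nearest without library 1, 2 or 3, was the second nearest without library 4, and was 10th with a pseudocount of 10 TPM.

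Mir152 was closest to Mir378a, a miRNA in an intron of the metabolic coactivator gene Ppargc1b, at 0.09 against a median of 0.67. Mir379 of the Dlk1-Dio3 locus was at 0.16, Mir199a-1, typical of mesenchyme, at 0.21, Mir99b at 0.28 and Mir191 at 0.29. Mir378a was 4th without library 3 and the second nearest without library 4.

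Mir148b and Mir152 lay below the minimum mean for this comparison, so neither could be listed among the genes nearest to another member. Mir148a could be listed, and was not among the 5 genes nearest to Mir148b or to Mir152. The distance between each pair of members was therefore set directly against those of the genes above the minimum. Mir148a and Mir148b differed by 0.40, and 24 of 67 genes were nearer to Mir148a and 13 of 67 nearer to Mir148b. Mir148a and Mir152 differed by 0.58, with 39 of 67 genes nearer to Mir148a and 24 of 67 nearer to Mir152. Mir148b and Mir152 differed by 0.52, with 22 of 68 genes nearer to either. Among the Hox-cluster neighbours of the minor members, Mir615 was 49th and Mir196a-2 33rd of 68 in nearness to Mir148b, while Mir10a was 44th of 68 and Mir196a-1 was 17th of 69 for Mir152. These places moved with single libraries: Mir615 was 31st without library 4, Mir196a-2 was 17th without library 3, and Mir10a was 23rd without library 1. Mir196a-1 was between 12th, without library 4, and 26th, without library 1 or 3.

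**Figure D5:**
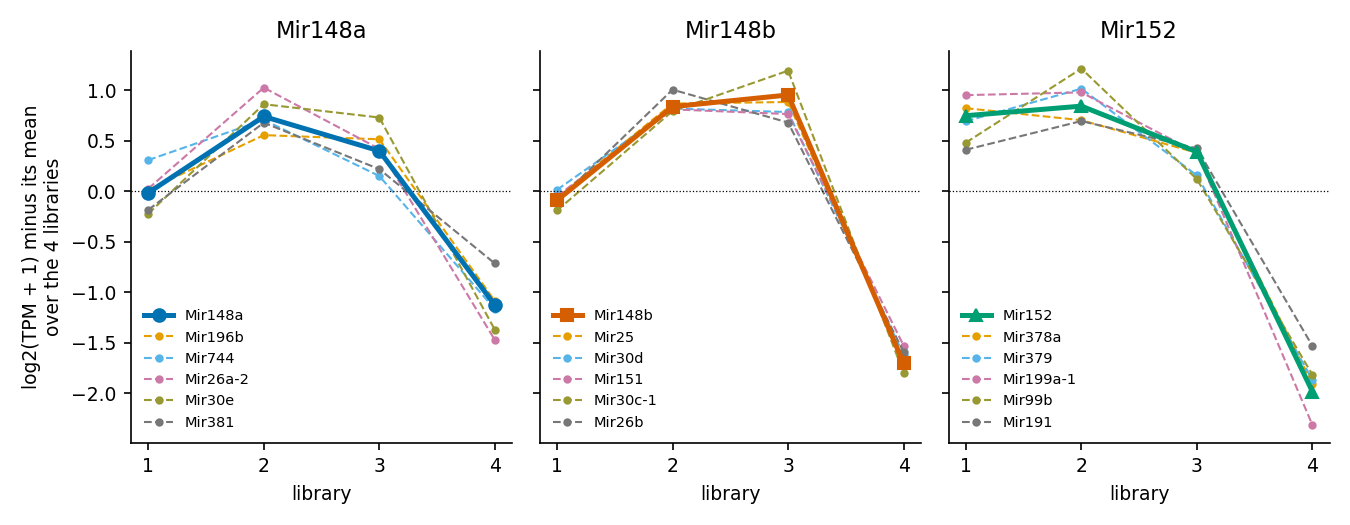
log2(TPM + 1) minus its mean over the libraries, for each member (thick line) and the 5 miRNA genes nearest to it in profile (dashed). Lines only join the points of a gene, since libraries have no order. Mir148a and Mir148b are lower in library 1 than in libraries 2 and 3, Mir152 is higher in library 1 than in library 3, and every gene shown is lowest in library 4.

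Other miRNAs known to act on DNA methyltransferases were compared by level. Of 13 listed, with the family included, all had a row, and 8 reached at least 1 TPM in every library, 61.5% against 33.1% of all miRNA genes. The median of their mean levels was 14.4 TPM, against 0.315 TPM over all 643. Without the family, whose levels were known when it was picked, 5 of 10 did so with a median of 3.89 TPM, and each of the 10 was below Mir148a in all 4 libraries. Their sum of 1045 ± 483 TPM (SD, n = 4) was mostly Mir143, at 593 ± 365 TPM, and Mir126a, at 374 ± 131 TPM, which are also markers of smooth muscle and endothelium. Mir342 was at 55.4 ± 28.4 TPM and Mir101b at 14.4 ± 8.50 TPM, both within the range of the minor family members or below it.

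The miR-29 genes, known to act on the de novo enzymes Dnmt3a and Dnmt3b, gave few reads. Mir29a had a mean of 0.216 TPM and Mir29b-1 of 0.233 TPM, while Mir29b-2, Mir29c and Mir101a were listed at 0 in all libraries. Each of the 3 rows at 0 overlaps a long non-coding row of the table, so a 0 there may be a matter of counting. The DNA methyltransferase messages themselves were not analysed here.

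Mir148b and Mir152 lie in introns, and they were set beside 13 genes of broadly expressed families that lie within protein-coding hosts. In GENCODE vM21, 9 of the 13 were in introns alone, and 4 (Mir26a-2, Mir25, Mir93 and Mir140) also overlapped an exon of some transcript. Of the 13, 11 reached 1 TPM in every library, 84.6% against 33.1% of all miRNA genes. Their means had a median of 85.3 TPM, against 71.8 TPM for Mir152 and 47.2 TPM for Mir148b. Mir26a-2, in Ctdsp2, led this list at 1575 ± 925 TPM, above Mir148a by mean, followed by Mir25 at 837 ± 504 TPM, Mir93 at 208 ± 127 TPM and Mir26b at 153 ± 93.3 TPM (SD, n = 4). The minor members were thus near the middle of that list, and the intergenic Mir148a was above all but Mir26a-2 by mean. Mir26a-1 had a mean of 0.495 TPM. How multiply mapping reads were treated is not given, so the split between Mir26a-1 and Mir26a-2 may depend on it.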

How the data were processed

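Small RNA libraries (single reads of 75 bp) were made from flow-sorted cells of 4 samples. The deposited values are TPM per Entrez gene, and the submitters' processing notes name mm10 (GRCm38) and limma. Not given in the sources used here are the aligner, the counter, their annotation and how multiply mapping reads were treated. Rows were joined by gene ID to RefSeq genes of GRCm38.p6 (2541 of 2976 matched). Reads were recovered by multiplying each TPM by its RefSeq length and dividing by the value of 1 read in that library. The result was a whole number (tolerance 0.01) for 100% of 1526 nonzero miRNA values. Dixon's test for 4 values (critical value 0.829) was applied to 14 sets of member values and marked 0. No count model or other test was run, since there is 1 group and the members and lists were chosen with earlier results of these data known. Log2 values use a pseudocount of 1 TPM.

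Genes named are the members, the genes next to them in rank, the 5 nearest profiles, chromosome neighbours and up to 4 of each list. Others (Mir130b, Mir196b as lowest CV) were chosen after their values were seen. Alternatives covered the pseudocount, rescaling, reads, filters and leaving out libraries. Profile distances and read recovery were tested on simulated data. Tools were scipy 1.17.1, numpy 2.4.6, pandas 2.3.3 and matplotlib 3.10.9 under Python 3.11.15.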

Additional observations from a re-analysis of the deposited data

How the results depend on the processing

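No paired comparison of conditions was possible because there is 1 group. The ratios between members were taken within each library. Over 17 results, 98 of 102 alternatives moved a value by less than the SD between libraries, or a count or CV by at most 1.5 times, and 0 reversed a sign. The sign is that of the mean, and single libraries can differ. For Mir148b to Mir152 the mean log2 ratio was -0.58 in TPM and -0.18 on reads, where 2 libraries lay on each side. The alternatives that moved more concern the 15 nearest-profile places. With a minimum mean of 10 TPM, which adds genes, 7 of the 15 were kept, and with a library left out 6 to 12 were kept (7, 12, 6 and 6 without libraries 1 to 4), and with a pseudocount of 10 TPM 10 were kept. Without libraries 1 to 4 in turn, Mir148a kept 1, 4, 1 and 2 of its 5, Mir148b kept 4, 4, 3 and 2, and Mir152 kept 2, 4, 2 and 2. The cause was not tested. Depth limits Mir148b and Mir152 in library 4, with 114 and 107 reads. The CVs of shares and their alternatives, such as a miRNA total without Mir10a and Mir10b, were chosen after seeing the data.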
